A study of Mus musculus with 6 samples.

Results

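The expression of 10 histone-modifying enzymes and complex subunits with known roles in germinal center (GC) B cells was followed in WT and Il21r-/- cells over the course of a GC response. The genes, named by symbol, were Ezh2, Eed, Suz12, Kmt2d, Crebbp, Ep300, Kdm6b, Hdac3, Dot1l and Kdm1a. They are 10 of the 27179 genes in the count table, and all 10 were among the 11005 genes expressed at a level that allowed a test. The 6 RNA-seq libraries came from spleens of C57BL/6 mice, either WT or lacking the IL-21 receptor (Il21r-/-), that had been immunized with the hapten-carrier conjugate NP-KLH in alum. For each genotype there was 1 library for day 7, 1 for day 10 and 1 for day 14 of the response. The sorted cells were NP-binding, class-switched GC B cells, gated as positive for B220, NP binding and IgG1 and negative for CD38, CD138, Gr1, IgM and IgD. By the study's methods, the mice of such experiments were irradiated hosts given WT or Il21r-/- bone marrow, and the gate held no marker that tells host from donor cells. The labels and the methods differ on how many mice stand behind a library, so p-values measure only the spread between these libraries, which may in part be technical.

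GC B cells divide rapidly, hold back plasma cell and memory programs, and rely on reversible histone marks to do so. Polycomb repressive complex 2 (PRC2), built from the methyltransferase EZH2 and the core subunits EED and SUZ12, places the repressive mark H3K27me3 on cell cycle inhibitor and plasma cell genes, and EZH2 is strongly induced when B cells enter the GC. KMT2D primes enhancers by methylating H3K4, CREBBP and EP300 acetylate H3K27 at the same enhancers, and BCL6 recruits HDAC3 through corepressors to remove that acetylation, so these enzymes set whether antigen presentation and exit genes are open or shut. KDM6B and KDM1A are demethylases, of H3K27 and H3K4 respectively, and DOT1L methylates H3K79 in transcribed genes.

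DNA upstream of the start listed for each gene in the RefSeq promoter table is shown for the 3 members whose levels differed between genotypes once the libraries of a day were compared in pairs, Ezh2, Suz12 and Kmt2d. The sequences are from RefSeq on GRCm38.p6 and run 5′ to 3′ on the strand of the gene. The starts used were chr6 47595030 for Ezh2, chr11 79993106 for Suz12 and chr15 98871205 for Kmt2d. The annotated spans of Ezh2 and Kmt2d reach further upstream than these starts, so both stretches also lie inside the gene as annotated over all its transcripts. That of Ezh2 is limited to bases that no GENCODE exon covers. Capitals mark E2F letters (TTTCCCGC, TTTCGCGC, TTTGCCGC or TTTGGCGC) or CCAAT, each searched on both strands.
Ezh2, chr6:47595059-47595183, minus strand: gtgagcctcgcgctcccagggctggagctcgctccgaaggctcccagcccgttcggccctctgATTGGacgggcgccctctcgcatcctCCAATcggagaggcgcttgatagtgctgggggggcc
Suz12, chr11:79992856-79993105, plus strand: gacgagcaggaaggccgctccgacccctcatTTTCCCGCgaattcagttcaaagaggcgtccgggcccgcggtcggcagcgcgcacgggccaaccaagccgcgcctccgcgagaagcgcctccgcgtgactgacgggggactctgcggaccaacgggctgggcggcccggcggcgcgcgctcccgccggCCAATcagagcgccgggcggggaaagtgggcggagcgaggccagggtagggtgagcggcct
Kmt2d, chr15:98871206-98871455, minus strand: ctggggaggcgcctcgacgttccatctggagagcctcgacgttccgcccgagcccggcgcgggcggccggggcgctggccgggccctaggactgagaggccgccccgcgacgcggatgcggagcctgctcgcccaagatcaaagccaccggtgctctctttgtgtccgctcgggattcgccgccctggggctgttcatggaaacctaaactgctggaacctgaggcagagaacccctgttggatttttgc
RefSeq promoters were at hand for 8 of the 10 members. Within the 250 bases before the start used, 1 of these 8 (Suz12) held the E2F letters, as did 1.86% of all 32851 promoters, and 3 of 8 (Ezh2, Suz12 and Kdm1a) held CCAAT, as did 33.85% of all promoters. A match is a description of the letters and not of factor binding.

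The libraries held between 21353438 and 27435124 reads counted on genes. Il21r averaged 285 CPM (read counts scaled to the size of the library) over the WT libraries and 115 over the Il21r-/- libraries, a log2 difference of 1.29 (edgeR quasi-likelihood test, adjusted p = 0.00137). Within the GC B cell marker list, the summed level ran from 9640 to 13481 CPM, whereas 6 of 7 T cell markers, Cd3e among them, stayed under 1 CPM throughout and the other, Lck, was at 80.8 to 121 CPM. Summed levels were 2.52 to 8.86 CPM for myeloid, 4.95 to 33.9 CPM for erythroid and 2287 to 3315 CPM for plasma cell markers, the last almost wholly Jchain, while the plasma cell marker Sdc1 stayed under 1 CPM. Their part in the results was not tested. One property of the libraries bears on several members. In the Il21r-/- day 10 library, long genes were high: the 2201 longest genes tested (4549 bases or more) lay at a median of 0.23 above their own 6-library mean on the log2 scale, and the shortest genes lay below theirs (median -0.15). In the Il21r-/- day 14 library the pattern was opposite, with medians of -0.13 for the longest and 0.21 for the shortest genes. Values for the long members Kmt2d, Ep300, Crebbp, Kdm6b and Dot1l (5694 to 19827 bases) are therefore given with and without that library or that trend.

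**Figure D1:**
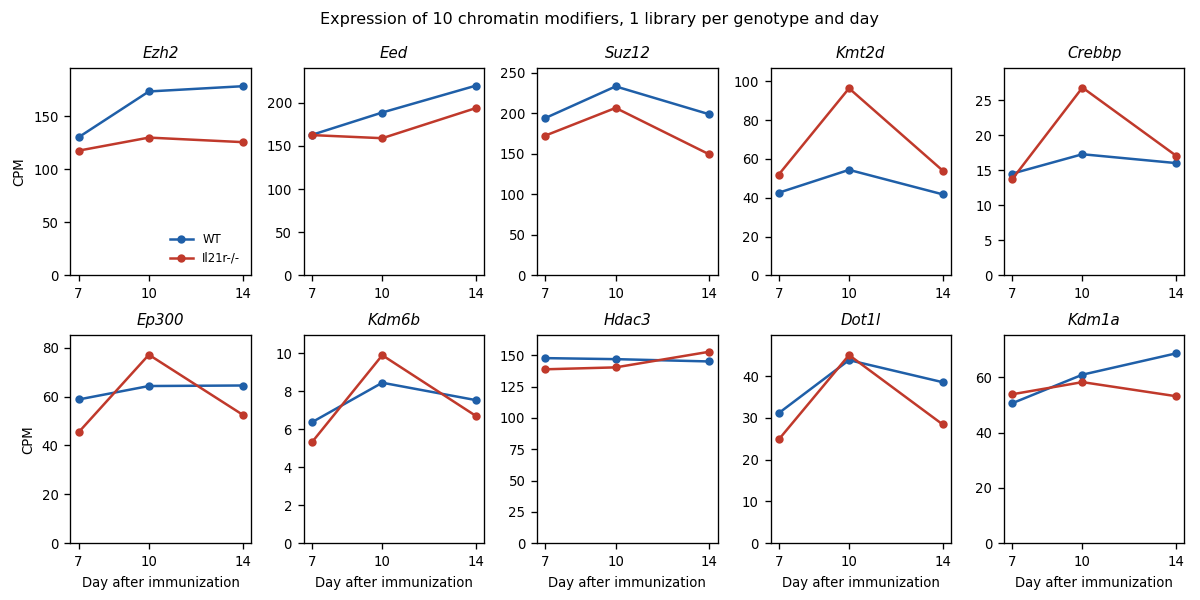
CPM of the 10 members (vertical axes, each from 0) against the day after immunization (horizontal axes) in WT (blue) and Il21r-/- (red) cells, where each point is 1 library and lines join the libraries of a genotype. Ezh2 was higher in every WT library than in any Il21r-/- library, Kmt2d was highest in the Il21r-/- day 10 library at 96.4 CPM, and Hdac3 was nearly level across all 6.

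The members differed widely in abundance. Per kilobase of exon, Eed had the highest mean level over the 6 libraries at 87.9 CPM per kb, followed by Hdac3 at 72.5, Ezh2 at 53.3, Suz12 at 44.0 and Kdm1a at 19.1. The large coactivators and methyltransferases were far lower, with Ep300 at 6.91, Dot1l at 6.20, Kmt2d at 2.87 and Crebbp at 2.34 CPM per kb, and Kdm6b was the lowest at 1.11. Among all genes tested, these levels ranged from the 88.6th percentile for Eed to the 10.5th for Kdm6b. Every library held this order except that 1 of 6 reversed Ep300 and Dot1l and 1 of 6 reversed Kmt2d and Crebbp. The ranges over the libraries overlapped for Ezh2 and Suz12, Ep300 and Dot1l, Dot1l and Kmt2d, and Kmt2d and Crebbp, so those neighbors were not separated beyond their spread.

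To ask whether IL-21 receptor deficiency went with altered expression of these enzymes, the genotypes were compared over the 3 days with a linear day effect. None of the 10 members passed the threshold of 0.05 on the adjusted p with edgeR's quasi-likelihood test, against 5.92% of all genes tested; DESeq2's Wald test also called 0. At an unadjusted p under 0.05 the count was 2 of 10 (Ezh2 and Kmt2d) against 21.4% of all genes. When the libraries of a day were paired by fitting day as a block, 3 of 10 passed, Ezh2 and Suz12 being higher in WT and Kmt2d in Il21r-/- cells. In that fit 22.9% of all genes passed, 9.33% higher in WT and 13.6% higher in Il21r-/- cells, so that the members' share was near the background. Without the Il21r-/- day 10 library but with the linear day term, 4 of 10 passed (Ezh2, Suz12, Ep300 and Dot1l, all higher in WT), against 19.1% of all genes. The median log2 difference of the members, WT over Il21r-/-, was 0.11 (8 of 10 positive), and that of all genes tested was -0.01.

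**Figure D2:**
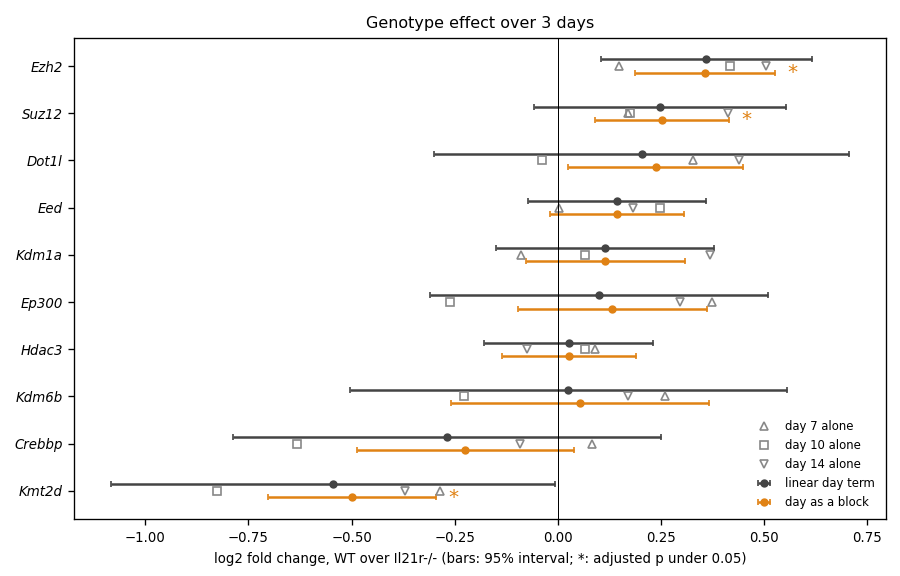
Log2 fold change of each member, WT over Il21r-/- (horizontal axis), over 3 days with a linear day term (grey) or with day as a block (orange), with 95% intervals as bars; open symbols are the differences on single days and asterisks mark an adjusted p under 0.05. Ezh2, Suz12 and Kmt2d passed with day as a block, and no member passed with the linear term.

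Ezh2 (Entrez 14056, chr6:47530274-47595270), the catalytic subunit of PRC2, was the only member whose WT and Il21r-/- libraries did not overlap. In WT cells it stood at 130.0 CPM on day 7, 173 on day 10 and 178 on day 14, and in Il21r-/- cells at 117, 129.7 and 125 CPM. Every WT library thus lay above every Il21r-/- library, although the WT day 7 and Il21r-/- day 10 libraries nearly met; genotypes separated in this way, higher in WT, for 8.33% of all genes tested. The Il21r-/- level was 90.3% of WT on day 7, 74.9% on day 10 and 70.4% on day 14. The log2 difference over 3 days was 0.36 (SE 0.11, 95% interval 0.10 to 0.62, edgeR adjusted p = 0.109), and pairing the days gave the same size with an adjusted p of 0.00203. With the linear day term and 1 library left out, the difference ran from 0.27 to 0.48 and passed only without the Il21r-/- day 10 library (0.39, edgeR adjusted p = 0.0192). With day as a block it did not pass without the day 14 pair (0.28, edgeR adjusted p = 0.119).

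The core subunits were less clearly separated. Eed (Entrez 13626, chr7:89954654-89980976), which binds H3K27me3 and stimulates the enzyme, was at 163, 189 and 219.8 CPM in WT and 162, 159 and 194 CPM in Il21r-/- cells on days 7, 10 and 14. The day 7 libraries were almost equal, and WT was higher on the later days without passing either fit (log2 difference 0.14, 95% interval -0.07 to 0.36, edgeR adjusted p = 0.434, with day as a block 0.205). Suz12 (Entrez 52615, chr11:79993106-80034123), the scaffold of the complex, was at 194, 233 and 199 CPM in WT and 172, 207 and 149 CPM in Il21r-/- cells. WT was higher on each day, while the Il21r-/- day 10 library exceeded the WT libraries of days 7 and 14, so the genotypes overlapped. The log2 difference was 0.25 (SE 0.13, 95% interval -0.06 to 0.55, edgeR adjusted p = 0.336), and with day as a block the adjusted p was 0.0204. Leaving out 1 library moved the value from 0.12, without the Il21r-/- day 14 library, to 0.37, without that of day 10 (edgeR adjusted p = 0.829 and 0.0231), and with day as a block it did not pass without the day 14 pair (0.17, edgeR adjusted p = 0.362). On all 3 days Ezh2, Eed and Suz12 were higher in WT, a pattern that 25.4% of all genes tested showed.

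The paralog Ezh1, which can replace Ezh2 in PRC2 and predominates in resting cells, ran the other way. Its levels were 19.5, 15.3 and 12.5 CPM in WT and 21.3, 26.0 and 21.6 CPM in Il21r-/- cells. It was higher in Il21r-/- cells, with a log2 difference of -0.56 (edgeR adjusted p = 0.0748, and 0.00206 with day as a block). Per kilobase, Ezh2 exceeded Ezh1 10.5-fold, 17.8-fold and 22.3-fold in WT cells on days 7, 10 and 14, and 8.65-fold, 7.85-fold and 9.15-fold in Il21r-/- cells.

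Of the 9 other PRC2 subunits tested, 2 passed over 3 days, 1 in each direction, against 5.92% of all genes tested. Mtf2, a Polycomb-like accessory subunit that brings PRC2 to CpG islands, was at 185, 221 and 297 CPM in WT and 119, 141 and 181 CPM in Il21r-/- cells (log2 difference 0.67, edgeR adjusted p = 0.00407). Its relative Phf1 was higher in Il21r-/- cells, at 12.5, 15.4 and 11.1 CPM against 8.98, 7.97 and 6.37 CPM in WT (-0.75, edgeR adjusted p = 0.0286). With day as a block 5 of 9 passed, against 22.9% of all genes. This added Ezh1 higher in Il21r-/- cells and Jarid2 and Phf19 higher in WT. The last 2 are named after their values were seen. Some exons of Mtf2 and Phf1 overlap genes on the opposite strand (Tmed5 and Cuta), as do exons of Ezh2, Eed, Suz12 and Kdm6b with noncoding genes, and whether counting used strand is not given in the sources used here.

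Known PRC2 target genes were examined next, since several encode cell cycle inhibitors or drivers of plasma cell fate. Over 3 days, 4 of 6 passed, against 5.92% of all genes tested, 3 being higher in Il21r-/- cells and 1 in WT. The list was chosen with earlier results of these data known, so its count is not an independent result. Cdkn2a, which encodes the inhibitors p16 and p19ARF, was at 3.55, 4.76 and 2.53 CPM in WT and 19.8, 24.7 and 33.5 CPM in Il21r-/- cells. Its log2 difference of -2.80 (SE 0.25, edgeR adjusted p = 0.000887) was the largest of the 6. The neighboring inhibitor gene Cdkn2b was at 0.696, 0.366 and 0.281 CPM in WT and 1.40, 1.90 and 2.21 CPM in Il21r-/- cells (-1.99, edgeR adjusted p = 0.0177), and Cdkn1b, encoding p27, was also higher in Il21r-/- cells (-0.79, edgeR adjusted p = 0.0107). Not all members of the list shared this direction: Prdm1, which encodes the plasma cell regulator BLIMP1, was higher in WT, at 1.39, 1.83 and 1.59 CPM against 0.262, 0.61 and 0.682 CPM (1.64, edgeR adjusted p = 0.0216). Cdkn2b in WT and Prdm1 in Il21r-/- cells stayed under 1 CPM, near the floor. Both met the filter on average level only through the genotype where they were high, so their calls carry little weight. With day as a block 5 of 6 passed, against 22.9% of all genes, adding Irf4 as higher in Il21r-/- cells. Irf4 is also in the list of enhancer genes taken up below. The list's count was also 4 of 6 without the Il21r-/- day 10 library, and it was 1 of 6 (Cdkn2a) without either the WT or the Il21r-/- day 14 library. Of all genes tested, 19.1% passed without the Il21r-/- day 10 library. The shares without the WT or the Il21r-/- day 14 library were 1.24% and 2.51%.

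**Figure D3:**
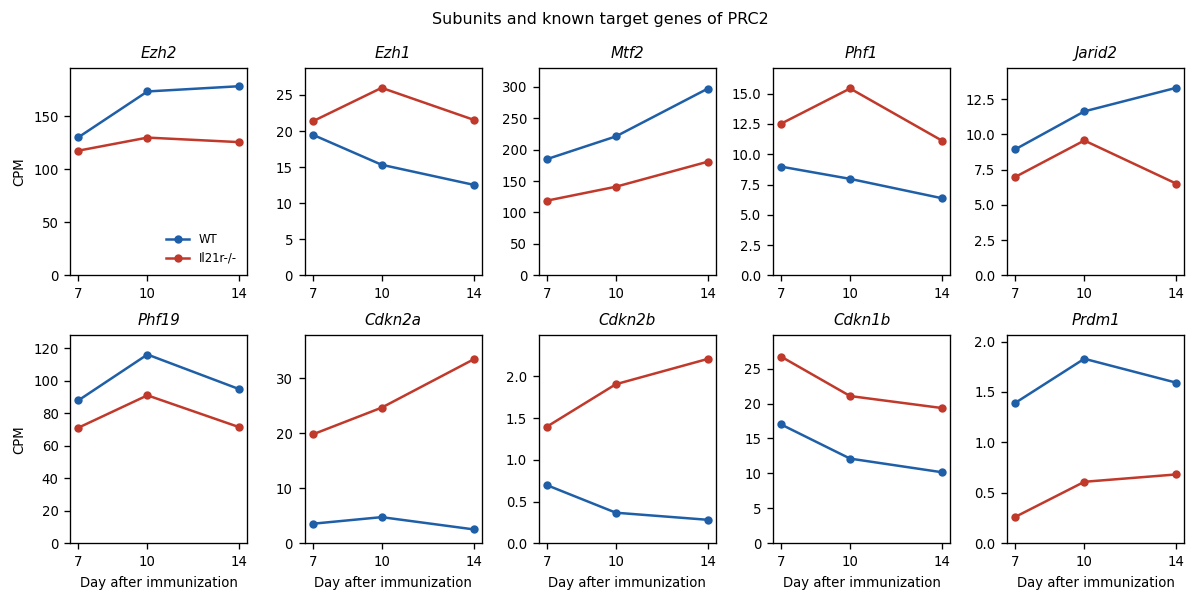
CPM (vertical axes, each from 0) against day after immunization for Ezh2, its paralog Ezh1, accessory subunits of PRC2 and 4 target genes of the complex, in WT (blue) and Il21r-/- (red) cells, 1 library per point. Mtf2 and Prdm1 were higher in WT, whereas Phf1, Cdkn2a, Cdkn2b and Cdkn1b were higher in Il21r-/- cells.

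Kmt2d (Entrez 381022, chr15:98831669-98874077), the main H3K4 monomethyltransferase of enhancers and the longest member, was the member with the widest range, its highest library being 2.31 times its lowest. Its levels were 42.6, 54.4 and 41.8 CPM in WT and 52.0, 96.4 and 54.0 CPM in Il21r-/- cells on days 7, 10 and 14. On each day Il21r-/- cells were higher, at 122%, 177% and 129% of WT, but the WT day 10 library exceeded the Il21r-/- libraries of days 7 and 14. The log2 difference was -0.55 (SE 0.24, 95% interval -1.08 to -0.01, edgeR adjusted p = 0.228), and with day as a block it was -0.50 (adjusted p = 0.00055). Since Kmt2d belongs to the long genes that were high in the Il21r-/- day 10 library, the day 10 pair was left out, which gave -0.32 with day as a block (edgeR adjusted p = 0.0469). With the length trend of each library removed instead, the difference was -0.52 (edgeR adjusted p = 0.00381). Without the Il21r-/- day 10 library but with the linear day term, the difference was -0.20 and did not pass.

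Kmt2c, the paralog of Kmt2d in the same kind of complex, was at 13.1, 19.8 and 20.1 CPM in WT and 13.9, 29.4 and 14.5 CPM in Il21r-/- cells. WT was lower on days 7 and 10 and higher on day 14, and the difference over 3 days did not pass (-0.15, edgeR adjusted p = 0.819). None of the 16 other H3K4 methyltransferases and subunits tested passed with edgeR's quasi-likelihood test (1 at an unadjusted p under 0.05, and 1 with DESeq2). The block fit called 2 of 16, Setd1b higher in Il21r-/- cells (-0.99, edgeR adjusted p = 2.43e-05) and Paxip1 higher in WT (0.28, edgeR adjusted p = 0.0321). That fit called 22.9% of all genes tested. Kdm6a, the H3K27 demethylase that works in these complexes, did not pass either (0.13, edgeR adjusted p = 0.746).

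The acetyltransferases Crebbp (Entrez 12914, chr16:4081334-4213957) and Ep300 (Entrez 328572, chr15:81586209-81652077) write the acetylation that KMT2D-primed enhancers carry. Crebbp was at 14.5, 17.3 and 16.0 CPM in WT and 13.7, 26.8 and 17.1 CPM in Il21r-/- cells. Ep300 was at 58.8, 64.3 and 64.5 CPM in WT and 45.4, 77.1 and 52.6 CPM in Il21r-/- cells. Both were highest in the Il21r-/- day 10 library, where Crebbp reached 155% and Ep300 120% of WT, while on days 7 and 14 Ep300 was at 77.2% and 81.5% of WT. Neither passed over 3 days (Crebbp -0.27, 95% interval -0.79 to 0.25, edgeR adjusted p = 0.547; Ep300 0.10, 95% interval -0.31 to 0.51, edgeR adjusted p = 0.798). Without the Il21r-/- day 10 library, Crebbp changed sign and did not pass (0.06, edgeR adjusted p = 0.804). Ep300 without that library was higher in WT (0.35, edgeR adjusted p = 0.0194). Leaving out the Il21r-/- library of day 7 or day 14 instead turned the sign of Ep300 (-0.06 and -0.04). Per kilobase, Ep300 exceeded Crebbp in all 6 libraries, by 2.47-fold to 3.48-fold.

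Hdac3 (Entrez 15183, chr18:37936971-37955015), the deacetylase of the BCL6 corepressor complexes, was the steadiest member. It was at 148, 147 and 145 CPM in WT and 139, 140.4 and 153 CPM in Il21r-/- cells, and its highest library was 1.10 times its lowest. The genotypes overlapped, and the log2 difference of 0.03 had a 95% interval of -0.18 to 0.23 (edgeR adjusted p = 0.9). Of the 20 other deacetylases and corepressors tested, 1 passed: Hdac11, a deacetylase of low abundance here, was at 0.916, 0.691 and 0.609 CPM in WT and 4.49, 4.27 and 4.62 CPM in Il21r-/- cells (-2.58, edgeR adjusted p = 0.000849). When day was a block 4 of 20 passed, Hdac9 and Rcor2 higher in WT and Hdac11 and Tbl1xr1 higher in Il21r-/- cells. Hdac11 in WT and Rcor2 in Il21r-/- cells stayed under 1 CPM, near the floor. Both met the filter on average level only through the genotype where they were high, so their calls carry little weight. Of all genes tested, 5.92% passed with the linear day term and 22.9% with the block.

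Genes whose enhancers are known to be opened by CREBBP and closed by BCL6 and HDAC3 were higher in Il21r-/- cells in each case that passed, 6 of 15 over 3 days and 13 of 15 with day as a block. The shares of all genes tested in these fits were 5.92% and 22.9%. This list, too, was chosen with earlier results of these data known. The 6 were the peptide-loading genes H2-DMa and H2-DMb1, the costimulatory genes Cd40 and Cd83, and the trafficking receptors Gpr183 and S1pr1. Gpr183 was at 14.5, 5.37 and 4.78 CPM in WT and 48.7, 39.8 and 21.7 CPM in Il21r-/- cells (-2.23, edgeR adjusted p = 0.00101). Cd83 was at 535, 383 and 446 CPM in WT and 885, 794 and 916 CPM in Il21r-/- cells (-0.93, edgeR adjusted p = 0.00669). The list's median log2 difference was -0.53, beside -0.01 for all genes tested. Of the 15 genes, 11 passed without the Il21r-/- day 10 library and 2 without the WT day 14 library. The shares of all genes tested moved the same way, to 19.1% and 1.24%. Markers of B cells outside the GC moved with it, 4 of 8 passing as higher and 1 as lower in Il21r-/- cells; S1pr1 is in both lists. Their summed level was 559 to 1215 CPM in WT and 934 to 1440 CPM in Il21r-/- cells, and their part in the result was not tested. In bulk samples such as these, fewer cells of a type and less RNA per cell cannot be told apart.

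Of the demethylases, Kdm6b (Entrez 216850, chr11:69398508-69420367), which removes H3K27 methylation, was near the lower end of the genes tested. It was at 6.38, 8.46 and 7.54 CPM in WT and 5.32, 9.91 and 6.70 CPM in Il21r-/- cells. The genotypes overlapped and changed order on day 10, with a log2 difference over 3 days of 0.03 (95% interval -0.50 to 0.55, edgeR adjusted p = 0.966). With day as a block and the length trend removed, the difference was 0.04 (edgeR adjusted p = 0.851). Kdm1a (Entrez 99982, chr4:136550533-136602787), the H3K4 demethylase LSD1, was at 50.6, 60.9 and 68.6 CPM in WT and 53.9, 58.3 and 53.2 CPM in Il21r-/- cells. Il21r-/- cells were at 106%, 95.6% and 77.4% of WT on days 7, 10 and 14, and the difference over 3 days did not pass (0.11, 95% interval -0.15 to 0.38, edgeR adjusted p = 0.629). Its paralog Kdm1b did not pass either (-0.23, edgeR adjusted p = 0.331).

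Dot1l (Entrez 208266, chr10:80755101-80795461), the H3K79 methyltransferase, was at 31.1, 43.8 and 38.5 CPM in WT and 24.8, 45.0 and 28.4 CPM in Il21r-/- cells. Il21r-/- cells were lower on days 7 and 14 (79.7% and 73.8% of WT) and level with WT on day 10 (103%). The log2 difference was 0.20 (95% interval -0.30 to 0.71, edgeR adjusted p = 0.653), and with 1 library left out it ran from 0.01 (without the Il21r-/- day 14 library, edgeR adjusted p = 0.997) to 0.51 (without that of day 10, edgeR adjusted p = 0.0126). Of its 7 partners in elongation complexes, 2 passed, both long genes: Aff1 (-1.23, edgeR adjusted p = 0.0457) and Aff3 (-1.01, edgeR adjusted p = 0.0197) were higher in Il21r-/- cells. With the length trend removed 3 of the 7 passed, and with day as a block 4 (Aff1, Aff3, Mllt3 and Mllt6), all higher in Il21r-/- cells. Among all genes tested, 5.92% passed with the linear day term, 12.3% with the length trend removed and 22.9% with the block.

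**Figure D4:**
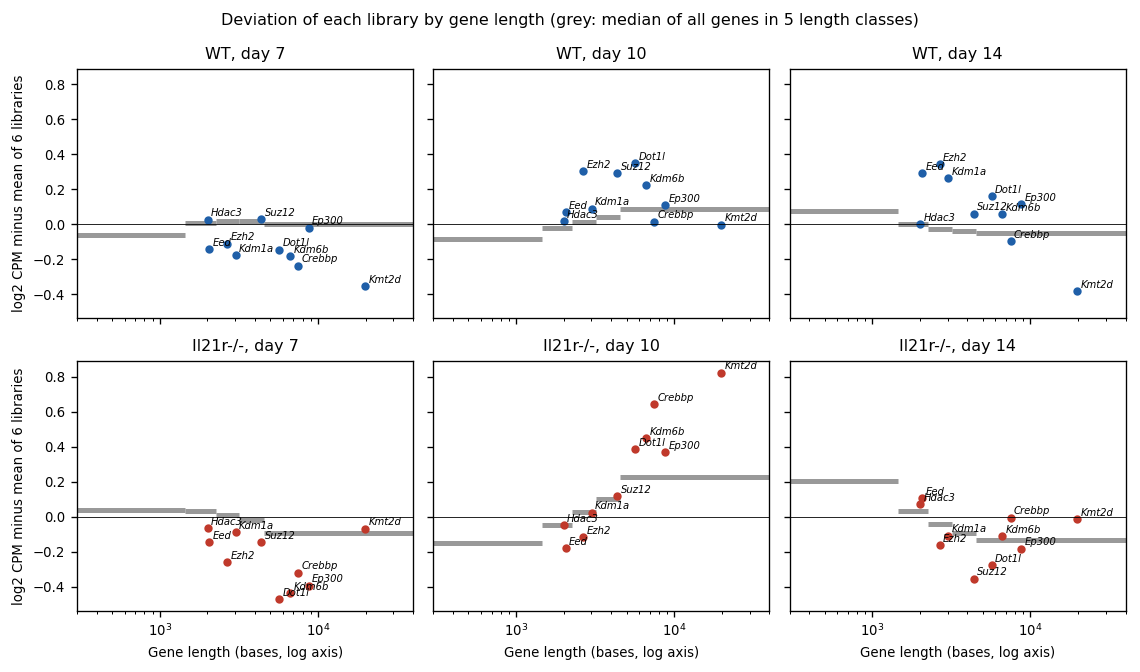
Deviation of each member from its mean over the 6 libraries (vertical axes, log2 CPM) against its length (horizontal axes, log scale), 1 panel per library; grey bars are the medians of all genes tested in 5 length classes. The 5 members of 5694 bases or more lay between 0.37 and 0.82 in the Il21r-/- day 10 library, where their length class had a median of 0.23. At their own lengths the fitted length trend there was 0.53 for Kmt2d, 0.30 for Ep300, 0.26 for Crebbp, 0.23 for Kdm6b and 0.19 for Dot1l. In the Il21r-/- day 14 library these members lay from -0.28 to -0.0047.

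Comparisons on single days were limited by 1 library of each genotype. By edgeR's likelihood ratio test 0 of 10 members passed on day 7, 10 or 14, against 1.07%, 3.1% and 3.28% of all genes tested. At an unadjusted p under 0.05, 0 members passed on days 7 and 10 and 1 on day 14 (Ezh2), against 5.51%, 10.8% and 12.1% of all genes. The day 14 log2 difference of Ezh2 was 0.51 (edgeR adjusted p = 0.307). The widest day 10 difference was that of Kmt2d, -0.83 (edgeR adjusted p = 0.471). When the dispersion was taken from a fit with day as a factor, these 2 values passed, with edgeR adjusted p of 0.0297 for Ezh2 and 0.000327 for Kmt2d. That setting also called more of all 11005 genes tested, 822 on day 10 and 1055 on day 14 in place of 341 and 361.

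Over time, across both genotypes, 0 of 10 members passed for a linear change from day 7 to day 14 by edgeR's quasi-likelihood test or DESeq2's Wald test, against 4.43% of all genes with edgeR. At an unadjusted p under 0.05, 1 of 10 (Eed) passed, against 23.5% of all genes. Eed was 0.35 higher on day 14 on the log2 scale (95% interval 0.08 to 0.61, edgeR adjusted p = 0.119). Without the Il21r-/- day 10 library it passed at nearly the same size, 0.34 (edgeR adjusted p = 0.0316). It was then the 1 member of 10 to pass, beside 2124 of all 10968 genes tested in that setting. Of 109 other chromatin modifiers tested, Mtf2 rose by 0.65 (edgeR adjusted p = 0.017), and the demethylase genes Kdm5b (-1.27, adjusted p = 0.0401) and Kdm7a (-0.68, adjusted p = 0.0426) fell. None of these 3 passed when any 1 of the day 7 or day 14 libraries was left out. The course over days did not differ detectably between genotypes for any member, and edgeR's quasi-likelihood test of that difference called 0 of all 11005 genes (118, or 1.07%, at an unadjusted p under 0.05, with 0 members; 31 with day as a block, again with 0 members). For Ezh2 the WT change exceeded the Il21r-/- change by 0.35, with a 95% interval of -0.34 to 1.03.

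Among all 109 other chromatin modifiers tested, 6 passed between genotypes over 3 days, 2 higher in WT (Mtf2 and the H3K9 methyltransferase gene Suv39h2, 0.53, edgeR adjusted p = 0.0327) and 4 higher in Il21r-/- cells (Phf1, Hdac11, Aff1 and Aff3). That is a share near the 5.92% of all genes. Of these, Hdac11 met the filter on average level only through the Il21r-/- libraries. With day as a block 29 passed, 15 higher in WT and 14 higher in Il21r-/- cells, near the 22.9% of all genes. With 1 library left out the count ran from 1 (without the WT day 14 library, against 1.24% of all genes) to 33 (without the Il21r-/- day 10 library, against 19.1%).

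The genes whose profile over the 6 libraries lay closest to that of Ezh2, by root mean square difference of centred log2 CPM, were Eme1 (0.036), Usp28 (0.038) and Atad3a (0.044), and 179 genes lay within 0.1. Eed ranked 912 and Suz12 1503 by this measure. Usp7 (0.020), Larp1b (0.022) and Gm3141 (0.022) were closest to Suz12. Kmt2d had few close profiles, with 3 genes within 0.1, Malat1 (0.082), Bcl9 (0.085) and Abca2 (0.092). Proliferation genes were higher in WT, as Ezh2 was. All 15 G1/S genes had positive log2 differences (median 0.39), of which 2, Rrm2 (0.48, edgeR adjusted p = 0.0273) and Ccne1 (0.51, edgeR adjusted p = 0.0379), passed over 3 days and 14 with day as a block. All 15 G2/M genes were positive too (median 0.38), with 0 passing by edgeR's quasi-likelihood test (11 at an unadjusted p under 0.05, 7 with DESeq2) and 13 with day as a block. Light zone genes were higher in Il21r-/- cells for both that passed (Cd83 and Cd40, 2 of 9), and with day as a block for 4 of 9, adding Cd86 and Nfkbia. Cd83, Cd40 and Cd86 are also in the list of enhancer genes above, so these are not separate observations. The dark zone list held 5 genes and left out mitotic genes. Of these, 0 of 5 passed by edgeR's quasi-likelihood test (1 at an unadjusted p under 0.05, 0 with DESeq2). With day as a block 2 of 5, Polh and Tcf3, passed as higher in WT. Beside these cell cycle and zone counts, 5.92% of all genes passed over 3 days and 22.9% with day as a block. The part of cell cycle activity in the Ezh2 and Suz12 differences was not tested.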

How the data were processed

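Single-end reads were aligned to mm10 by the authors with Rsubread, assigned to genes with featureCounts and the inbuilt RefSeq annotation (CASAVA 1.8.2 is also in the submitters' notes), and deposited as raw read counts per gene without normalization. The deposited Length column, in bases of exon per gene (another unit than counts), was used for levels per kilobase. Strand and multi-mapping settings are not given in the sources used here. The deposited tables of all libraries and of single libraries held the same counts, and 0 columns were left unused.

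Entrez identifiers were named from RefSeq (25275) or GENCODE (18) of GRCm38; 1886 had no symbol. Genes with an average log2 CPM under 0, and 137 Y-linked, Xist or Ig variable genes, were left out of tests. CPM used TMM-scaled library sizes. Genotype and day trend were tested by edgeR 4.0.16 (R 4.3.3, quasi-likelihood test, genotype plus linear day, 3 residual degrees of freedom, common biological coefficient of variation 13.1%), single days by edgeR's likelihood ratio test with a mean per day, with Benjamini-Hochberg adjustment over 11005 genes and a threshold of 0.05. A log2 difference is WT over Il21r-/-, and a day trend is day 14 over day 7. Intervals use the standard error of the fitted model and cover the spread between these libraries only.

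The replicate numbers stand for days. After the genotype means were subtracted, libraries of a day deviated together across genes (r = 0.64, 0.41 and 0.64 on days 7, 10 and 14; genes are not independent), so a fit with day as a block is given beside results it changes. Other alternatives were DESeq2 1.42.0 (Wald test and size factors), other filters and dispersion settings, each library left out, and, chosen after seeing the data, a lowess length trend (span 0.3) removed from each library and the block without 1 day. Scripts were tested on simulated counts. The members and all gene lists were chosen with earlier results of these data known. Genes named were the members, Il21r, the paralogs Ezh1, Kmt2c, Kdm6a and Kdm1b, list genes past the threshold over all libraries (up to 4 per list and direction by smallest p), and the 3 closest profiles. Genes passing only with day as a block were named after their values were seen.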

Additional observations from a re-analysis of the deposited data

How the results depend on the processing

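Of 700 member values under other settings, 628 kept their direction and their side of the threshold, 26 newly passed it and 46 changed sign. These values include single-day differences with a library of another day left out. Such a difference rests on the libraries of its own day, so its direction was all but fixed (for Crebbp on day 7, 0.081 to 0.083). The tally therefore overstates how steady the values were. With day as a block, 2519 genes and 3 members were called over 3 days, and 31 genes for the difference in day trend (651 and 0 genes without it); the block changed no other member's call. The block also called 2147 genes and 3 members without the pair of day 7, 1593 and 5 without day 10 (adding Ep300 and Dot1l), and 1070 and 1 (Kmt2d) without day 14. With the length trend removed, 1355 genes and 2 members (Ezh2 and Kmt2d) were called over 3 days, 184, 531 and 579 genes on days 7, 10 and 14 (1 member, Kmt2d, on day 14) and 1182 genes and 1 member (Eed) for the day trend; with the block as well, 2949 genes and 3 members were called over 3 days. Dispersions with day as a factor gave 303, 822 and 1055 genes on the 3 days, with 1 member each on days 10 and 14. Keeping the linear day term on day 10 gave 722 genes, testing all genes with any count gave 991 genes over 3 days and 869 for the day trend, and DESeq2's Wald test gave 870 for the day trend. The causes of these shifts were not tested.

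Signs turned as follows. With the linear day term kept, day 7 gave Crebbp -0.3035, Kdm6b -0.08802 and Dot1l -0.02717, day 10 Ep300 0.1467, Kdm6b 0.221 and Dot1l 0.4241, and day 14 Kdm6b -0.0752. With the length trend removed, Crebbp was -0.03097 on day 7 and Dot1l 0.07359 on day 10. With the block, Kdm6b was -0.03305 without the day 7 pair, Kmt2c 0.2021 without the day 10 pair and Kdm1a -0.01166 without the day 14 pair. With at least 10 counts in every library, the difference in day trend of Ep300 was 0.004966.

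With 1 library left out, calls over 3 days ranged from 136 genes (without the WT day 14 library) to 2093 genes and from 0 to 4 members (without the Il21r-/- day 10 library), day 7 calls from 105 to 212 genes, day 14 calls from 339 to 698 genes, day trend calls from 0 genes (without the WT day 7 library) to 2124 genes and from 0 to 1 member (without the Il21r-/- day 10 library), and calls of a difference in day trend from 0 to 11 genes. Of 19 named genes called over 3 days that are no members, 5 (Cdkn2a, Gpr183, Hdac11, Il21r and S1pr1) passed whichever library was left out, and of 7 called for the day trend 0 did. Hdac11 met the filter on average level only through the Il21r-/- libraries, so its call carries little weight. List counts over 3 days were highest without the Il21r-/- day 10 library in each list of the report, reaching 5 of 9 other PRC2 subunits, 4 of 16 H3K4 enzymes and subunits, 4 of 20 deacetylases and corepressors, 12 of 15 G1/S and 9 of 15 G2/M genes, except the PRC2 targets, which kept their count of 4. In that setting 19.1% of all genes tested passed. Over 3 days the log2 difference ranged for Crebbp from -0.4806 to 0.05757, Ep300 from -0.06173 to 0.3544, Kdm6b from -0.1613 to 0.3169, Hdac3 from -0.002739 to 0.08325, Kdm1a from -0.008471 to 0.2214, Suz12 from 0.1217 to 0.3705, Dot1l from 0.006749 to 0.506, Ezh2 from 0.2664 to 0.481, Kmt2d from -0.756 to -0.2018, Kmt2c from -0.4844 to 0.3005 and Kdm6a from -0.04106 to 0.3815. For the day trend the ranges were -0.08619 to 0.5411 (Dot1l), -0.1894 to 0.4558 (Crebbp), -0.1316 to 0.374 (Ep300), -0.08729 to 0.5019 (Kdm6b), -0.4202 to 0.2812 (Kmt2d), -0.2817 to 0.09558 (Suz12) and -0.02578 to 0.1186 (Hdac3). For the difference in day trend they were -0.5209 to 0.8639 (Suz12), -1.656 to 1.397 (Dot1l), -0.1055 to 0.584 (Eed), -2.066 to 1.365 (Kmt2d), -2.053 to 1.228 (Crebbp), -1.579 to 1.059 (Ep300), -1.798 to 1.163 (Kdm6b) and -0.2762 to 0.01455 (Hdac3).

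Each genotype had 1 library a day, so a single day has no replicate of its own and 3 days share 1 estimate of the spread. The 95% intervals of Crebbp, Kdm6b and Dot1l are the widest but for Kmt2d, so moderate differences in these genes were not detectable.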
